A study of Mus musculus with 24 samples.

Results

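Platelets and their parent cells, megakaryocytes, were followed through 9 genes in Cirh1a gene-trap mouse embryos: Pf4, Ppbp, Gp1ba, Gp1bb, Gp9, Gp5, Itga2b, Itgb3 and Plek. The genes were taken by name, and each was found as 1 target ID (a transcript entry of the array with its own probe or probes) of the 31483 in the deposited table: PPBP, GP5, GP9, GP1BA, GP1BB, ITGA2B, ITGB3 and PLEK under their own names, and PF4 as CXCL4, a synonym. Ppbp and Itga2b were each read by 2 probes and the other 7 genes by 1. Of the 9 genes, 8 had values on all 24 arrays, while Gp1ba had values for E9.5 and for E11.5 but for neither of the others.

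The arrays were Illumina mouse bead arrays of total RNA from 8 groups of 3 samples. At embryonic day (E) 8.5 and E9.5 the samples were whole embryos, and at E11.5 and E12.5 they were liver. At each stage 3 samples were wild type and 3 were heterozygous for a β-Geo gene trap in Cirh1a, which encodes cirhin, a nucleolar protein of ribosome assembly. All samples are labelled C57BL/6 JAX, and the gene-trap label stands on the wild types too, so the genotype was read from the sample title. Whether single or pooled embryos gave a sample is not in the labels, and p-values measure only the spread between these samples. Cirh1a itself was lower in every heterozygote array than in every wild-type array at the 3 stages with a value: 9.85 to 9.90 against 10.64 to 10.97 on the log2 scale at E8.5, 10.73 to 10.98 against 11.74 to 11.78 at E9.5, and 9.26 to 9.63 against 10.32 to 10.46 at E12.5. Its E11.5 level was not analysed here.

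Megakaryocytes form from blood progenitors first in the yolk sac and then in the fetal liver, and they shed platelets into the blood. Their genes fall into working groups: chemokines stored in alpha-granules (Pf4, Ppbp), the GPIb-IX-V complex that catches von Willebrand factor at a damaged vessel wall (Gp1ba, Gp1bb, Gp9, Gp5), the fibrinogen receptor integrin alphaIIb-beta3 (Itga2b, Itgb3) and the protein kinase C substrate pleckstrin (Plek), which other blood cells also make. GATA1 and FLI1 are transcription factors known to drive many of these genes.

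Promoter sequences are given for 4 of the genes: Pf4, which had the largest log2 difference of the 8 members tested between E8.5 embryo and E12.5 liver, its direct neighbour Ppbp, and the receptor genes Gp5 and Gp1ba, each with 2 copies of the GATA core motif. RefSeq tables held 8 of the 9 promoters, as 250 bases before to 50 bases after the start site that the table uses, in build GRCm38.p6, printed 5′ to 3′ on the gene's strand. That site is the start of the gene's annotated span for 6 of the 8 and lies inside the span for Gp9 and Gp1ba. Capitals mark GATAA or, on the opposite strand, TTATC. The windows are chr5:90772185-90772484 on the + strand for Pf4, chr5:90768268-90768567 on the + strand for Ppbp, chr16:30310732-30311031 on the - strand for Gp5 and chr11:70638872-70639171 on the + strand for Gp1ba.
Pf4: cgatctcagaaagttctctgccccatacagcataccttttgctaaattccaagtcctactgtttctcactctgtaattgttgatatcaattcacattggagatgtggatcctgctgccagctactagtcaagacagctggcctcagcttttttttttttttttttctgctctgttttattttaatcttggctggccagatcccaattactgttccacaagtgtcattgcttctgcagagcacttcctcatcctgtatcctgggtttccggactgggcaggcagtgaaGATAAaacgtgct
Ppbp: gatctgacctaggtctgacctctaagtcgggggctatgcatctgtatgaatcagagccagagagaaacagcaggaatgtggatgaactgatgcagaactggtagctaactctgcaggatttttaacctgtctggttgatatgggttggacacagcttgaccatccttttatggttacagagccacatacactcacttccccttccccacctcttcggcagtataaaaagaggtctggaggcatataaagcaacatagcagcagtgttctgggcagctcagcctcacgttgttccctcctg
Gp5: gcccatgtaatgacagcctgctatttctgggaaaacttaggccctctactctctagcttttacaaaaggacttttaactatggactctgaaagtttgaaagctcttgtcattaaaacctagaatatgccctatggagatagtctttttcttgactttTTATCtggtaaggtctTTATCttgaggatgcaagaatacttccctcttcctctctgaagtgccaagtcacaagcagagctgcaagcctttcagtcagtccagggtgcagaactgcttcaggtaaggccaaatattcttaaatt
Gp1ba: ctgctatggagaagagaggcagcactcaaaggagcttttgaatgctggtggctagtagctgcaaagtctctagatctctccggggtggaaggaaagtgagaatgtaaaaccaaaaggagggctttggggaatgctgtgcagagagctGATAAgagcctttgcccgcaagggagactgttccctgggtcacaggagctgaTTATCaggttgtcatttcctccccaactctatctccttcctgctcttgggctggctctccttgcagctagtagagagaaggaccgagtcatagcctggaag
The core GATAA, searched on both strands, lay in 5 of the 8 promoters, and 25.4% of 32851 mouse promoters of the same length hold it. Its position from that start site was 38 in Pf4, -43 in Gp9 and -196 in Plek. Gp5 held it at -93 and -77, and Gp1ba at -103 and -51, where 5.27% of all promoters hold 2 or more. The ETS core GGAAG (or CTTCC), the kind of site FLI1 reads, was in 7 of the 8 promoters and in 71.4% of all. A match describes these letters and does not show a bound site.

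In whole embryos the platelet genes lay in the low or middle range of the array, and in liver all but Itgb3 lay in the upper part. Levels are given first as percentiles of the gene's log2 value among all target IDs of the same array, because the authors' values lie on different scales at different stages. Each mean is over the 6 arrays of a stage, both genotypes together, with its SD. Of the hepatic markers, 13 of 18 lay above the 90th percentile at E11.5 and 14 of 17 at E12.5, against 6 of 17 and 3 of 18 in E8.5 and E9.5 embryos. Above the array median the counts were close, 15 of 18 and 15 of 17 in liver and 14 of 17 and 13 of 18 in embryo. Between embryo and liver, tissue and stage cannot be told apart, and in bulk RNA neither can fewer cells of a type and less RNA per cell. The labels name no array batch.

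Pf4, the chemokine platelet factor 4, lay at the percentile 31.8 ± 11.1 (SD, n = 6) at E8.5 and 73.7 ± 4.18 at E9.5. In liver it reached 98.4 ± 0.51 at E11.5 and 97.8 ± 0.25 at E12.5. Its ranges did not overlap between E8.5, E9.5 and either liver stage, while the E11.5 and E12.5 ranges overlapped. Pf4 was the single member above the 75th percentile on any E9.5 array, with a highest value there at the percentile 80.1.

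Ppbp, the second alpha-granule chemokine, was still low at E9.5. Its percentile was 27.8 ± 12.6 at E8.5 and 27.5 ± 13.2 at E9.5, with overlapping ranges. It was 93.9 ± 0.65 at E11.5 and 96.8 ± 0.63 at E12.5, and those ranges did not overlap. Pf4 was thus higher at E9.5 than at E8.5 without overlap and Ppbp was not, although the genes stand side by side on chromosome 5 with 0 genes between them.

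The GPIb-IX-V genes shared a step between whole embryo and liver. Gp1bb, the beta chain of GPIb, was at 37.7 ± 11.53 and 17.8 ± 10.2 in E8.5 and E9.5 embryos, and at 81.6 ± 1.47 and 84.96 ± 0.87 in E11.5 and E12.5 livers. Gp1ba, the chain that binds von Willebrand factor, was at 42.5 ± 8.52 at E9.5 and 78.4 ± 0.89 at E11.5. Gp9, a small subunit of the complex, was already above the middle in whole embryo, at 61.6 ± 10.7 and 58.6 ± 2.06, and reached 88.9 ± 1.30 and 90.2 ± 0.62 in liver. Gp5, the subunit cut by thrombin, was at 62.7 ± 2.85 and 57.9 ± 4.83 in whole embryo and at 92.9 ± 0.35 and 95.1 ± 0.41 in liver. For each of these 4 genes the lowest liver array stood above the highest whole-embryo array.

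The target IDs of the integrin chains differed in level. Itga2b, the alphaIIb chain (CD41) that also marks early blood progenitors, was at 70.6 ± 2.61 at E8.5 and lower, without overlap, at 57.5 ± 3.64 at E9.5. It was at 82.9 ± 0.97 at E11.5 and 85.4 ± 1.41 at E12.5. Itgb3, the beta3 chain, stayed near the middle at 47.4 ± 8.80, 58.8 ± 2.24, 57.6 ± 3.89 and 47.6 ± 8.80 in stage order, and the ranges of neighbouring stages overlapped. It was read by 1 probe, and whether that probe detected Itgb3 at any stage was not assessed here. Plek rose with the glycoproteins, from 60.9 ± 5.07 and 59.2 ± 5.13 in whole embryo to 89.5 ± 1.09 and 89.6 ± 0.80 in liver.

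**Figure D1:**
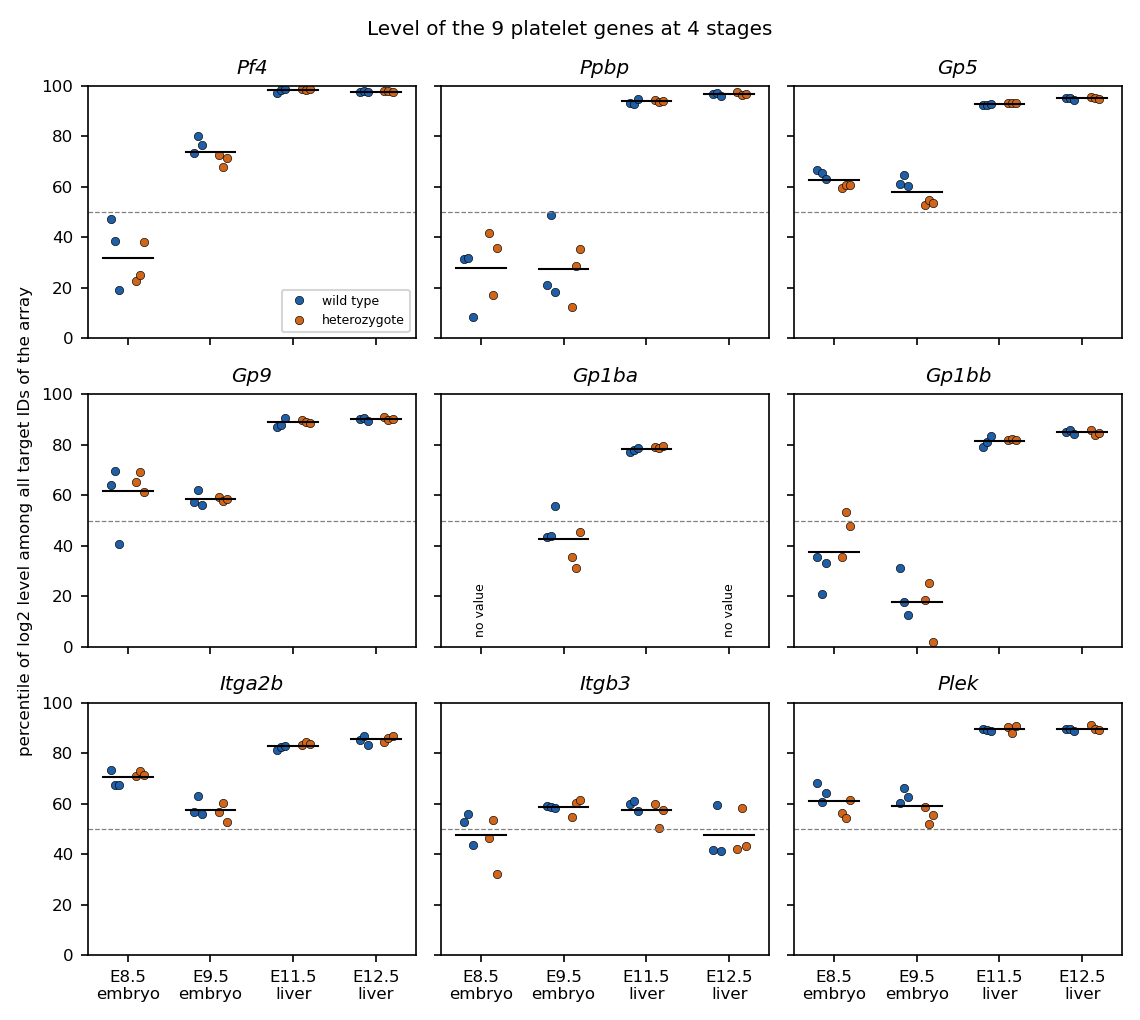
Percentile of each of the 9 genes (panels) within its array, by stage on the horizontal axis; each point is 1 array (blue wild type, orange heterozygote), black bars are the mean of the 6 arrays, and the dashed line is the middle of the array. For 8 genes every liver point stands above every whole-embryo point, and Itgb3 is the exception.

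The E8.5 embryos and E12.5 livers could also be compared on the log2 scale, because their 12 arrays share 1 set of percentiles (largest gap 0.00104). Of the 8 members tested, 7 were higher in E12.5 liver with an adjusted p under 0.05 (limma), where 29.1% of the 14626 target IDs tested passed in that direction and 44.3% in the other. The same 7 did not overlap between the stages, against 23.9% of all target IDs. The median difference was 5.51 for the 8 members and -0.25 for all target IDs tested. The filter kept a target ID above the median at either stage, so members that were low in embryo entered through liver, and the count of 7 supports nothing further.

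Pf4 had log2 levels of 2.60, 2.34 and 1.92 in the E8.5 wild types and of 2.00, 2.04 and 2.33 in the E8.5 heterozygotes. At E12.5 it had 11.63, 11.78 and 11.51 in the wild types and 11.94, 11.71 and 11.67 in the heterozygotes. The stages stood far apart and the genotypes within them overlapped, with a difference of 9.502 between stages (SE 0.124, adjusted p = 1.66e-13).

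Ppbp differed by 9.08 (SE 0.178) and Gp5 by 6.90 (SE 0.105). Gp1bb differed by 5.55 (SE 0.129), Plek by 5.48 (SE 0.170) and Gp9 by 5.32 (SE 0.300). Itga2b had the smallest of the called differences, 3.12 (SE 0.223, adjusted p = 1.50e-07). Itgb3 differed by 0.04, with a 95% interval from -0.44 to 0.52 (adjusted p = 0.889).

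The Itgb3 levels were 2.81, 2.99, 2.49, 2.57, 2.86 and 2.19 on the E8.5 arrays and 2.42, 3.24, 2.41, 2.43, 3.14 and 2.47 on the E12.5 arrays, wild types first. All 12 lay between 2.19 and 3.24, around the array median of 2.65 at E8.5 and 2.64 at E12.5. Pf4, Ppbp and Gp1bb were below that median at E8.5, where detection was not assessed here, and their differences depend on the authors' scale at the low end. Target IDs of several probes were more often low at E8.5: of those high at the 3 other stages (above the 80th percentile at each), 10.7% of 1930 with several probes and 0.835% of 2036 with 1 probe lay below the E8.5 median. That touches Ppbp and Itga2b, and its part in their differences was not tested.

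Other platelet genes gave a mixed picture in the same comparison. The level filter held for every list, so genes low in embryo entered through liver, and genes low in liver entered through embryo. Beside the shares of 29.1% higher and 44.3% lower over all target IDs, 15 of 20 receptor and adaptor genes tested were higher in E12.5 liver and 3 lower, with a median of 1.10. The thrombin receptor F2rl2 differed by 5.93 (SE 0.153) and the Fc receptor gamma chain Fcer1g, which myeloid cells share, by 7.69 (SE 0.114). Among granule genes 13 of 19 were higher and 3 lower, with a median of 1.44, from the clotting factor F13a1 at 5.92 (SE 0.137) to the growth factor Pdgfa at -3.87 (SE 0.111). Among cytoskeleton and enzyme genes 11 of 21 were higher and 6 lower, with a median of 0.51, and the platelet lipoxygenase Alox12 stood at 7.22 (SE 0.109).

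Among the transcription factors 11 of 17 were higher and 4 lower. Tal1, a factor of early blood formation, differed by 4.15 (SE 0.160), its partner Lmo2 by 2.87 (SE 0.0768) and the homeobox factor Meis1 by -3.13 (SE 0.0937). Fli1 differed by 0.62 (SE 0.174, adjusted p = 0.00718) with overlapping ranges. Markers of other blood cells were higher in liver as well: 15 of 16 macrophage markers and 13 of 15 red cell markers passed the test upward, with medians of 3.59 and 4.37. Of 10 granulocyte and mast cell markers 9 were higher, with a median of 6.04. Of 17 endothelial markers 7 were higher and 8 lower, with a median of -0.35, near the -0.25 of all target IDs. Hepatic markers were higher in 14 of 16, and cardiac markers were lower in 9 of 9. The part of these cells in the platelet values was not tested. All these lists passed the same filter as the members, so their counts support nothing further.

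**Figure D2:**
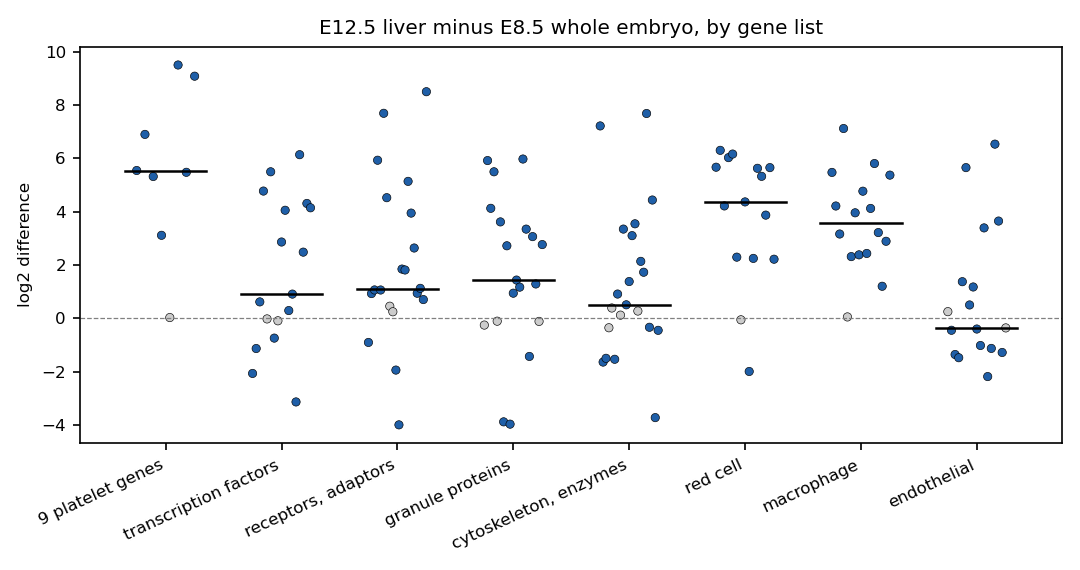
Log2 difference between E12.5 liver and E8.5 whole embryo (vertical axis) for each tested gene of 8 lists; a point is 1 gene, blue where the adjusted p was under 0.05 and grey otherwise, and black bars are medians. The median of the 9-gene set (8 tested) is 5.51, and Itgb3 is its 1 grey point near 0.

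Whether heterozygotes differ from wild types was asked within each stage. No member passed an adjusted p of 0.05 in limma at any stage when the 6 arrays of the stage were fitted alone. The calls over all target IDs were few too: 3 of 12603 (0.0238%) in the E8.5 embryos and 1 of 15741 (0.00635%) in the E9.5 embryos. They were 0 of 15734 (0%) and 0 of 12603 (0%) in the E11.5 and E12.5 livers, where 414 and 486 passed an unadjusted p under 0.05. The 3 calls at E8.5 were all sex-linked genes, 1 higher and 2 lower in heterozygotes.

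At E9.5 the heterozygote embryos had lower values of Pf4, Gp5 and Plek in all 3 arrays than the wild types in any. The Pf4 log2 levels were 8.28, 9.20 and 8.67 in wild types and 8.16, 7.57 and 8.03 in heterozygotes. The groups were apart by a small margin, and the difference was -0.79 (SE 0.214, adjusted p = 0.231).

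Gp5 had levels of 7.06, 7.30 and 7.02 in wild types and of 6.72, 6.78 and 6.75 in heterozygotes. The heterozygotes lay close together below all wild types, with a difference of -0.37 (SE 0.0763, adjusted p = 0.157). Plek had levels of 7.01, 7.41 and 7.15 in wild types and of 6.94, 6.68 and 6.81 in heterozygotes. These groups were apart as well, with a difference of -0.38 (SE 0.103, adjusted p = 0.231). The heterozygotes of Gp5 and Plek lay near the E9.5 array median of 6.63, and detection was not assessed here.

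These 3 were among 6 members tested at E9.5, and 9.27% of all target IDs tested were lower without overlap. At an unadjusted p under 0.05 it was 5.86%. The other 3 tested members differed little: Itga2b by -0.08 (95% interval -0.31 to 0.15), Gp9 by -0.01 (-0.19 to 0.16) and Itgb3 by 0.02 (-0.15 to 0.19). Gp1ba, Ppbp and Gp1bb were below the level filter, with differences of -0.22, -0.09 and -0.09.

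The E9.5 result depended on the fit. With the spread estimated over all 24 arrays the adjusted p was 0.00387 for Gp5, 0.0357 for Pf4 and 0.105 for Plek, and 64 target IDs passed. On simulated data, the fit over all arrays gave 44 false calls for each contrast simulated. The E9.5 stage fit gave 11. The E9.5 difference itself has no simulated rate in the fit over all arrays. With the Y-linked level of each array as a covariate, the differences shrank to -0.37 for Pf4, -0.22 for Gp5 and -0.20 for Plek, with adjusted p of 0.738, 0.571 and 0.728. Every E9.5 array carried both Xist (9.34 to 11.13) and the Y-linked Eif2s3y (8.65 to 9.68).

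Genes of the hepatic marker list differed at E9.5 too. In whole embryos 13 of 17 of them lay above the 75th percentile at E8.5 and 8 of 18 at E9.5. Which tissue of the embryo gave this signal was not tested. Of 13 tested, 12 were higher in heterozygotes at an unadjusted p under 0.05, with a median of 0.75, and the mean level of the 17 markers with values on all arrays was 8.429, 8.425 and 8.4996 in wild types and 9.37, 8.99 and 8.67 in heterozygotes. Over all target IDs 5.2% were higher and 5.86% lower at that p. Other marker lists differed as well: 6 of 11 cardiac markers (median 0.19) and 5 of 18 endothelial markers (median 0.07) were higher at that p. Of 9 neural markers (median -0.29) 4 were lower. Red cell markers had a median difference of -0.03 and macrophage markers of 0.05. The part of these shifts in the platelet values was not tested.

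Other platelet genes at E9.5 went both ways. Of 13 receptor and adaptor genes tested 11 were negative, with a median of -0.06 against 4.89e-05 for all target IDs. In that list 4 were lower without overlap, against 9.27% of all target IDs. F2rl2 differed by -0.44 (SE 0.0955, adjusted p = 0.168) and Treml1, a receptor stored in alpha-granules, by -0.33 (SE 0.102, adjusted p = 0.276). Cytoskeleton and enzyme genes were split, 8 positive and 9 negative of 17, with a median of -2.16e-05. Among them the platelet beta-tubulin Tubb1 differed by -0.28 (SE 0.124, adjusted p = 0.438) and the actin crosslinker Flna by -0.22 (SE 0.0653, adjusted p = 0.263). Tubb1 was read by the target ID 2810484G07RIK, a synonym, and its lower target ID TUBB1 is not shown. Granule genes were split, 8 positive and 6 negative of 14. In this list the vessel growth factor Angpt1 was taken to be ANG1, a name that several genes share. ANG1 differed by 0.42 (SE 0.106, adjusted p = 0.196), and which of those genes it reads was not settled here. Of 16 transcription factors 11 were positive, with a median of 0.04.

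**Figure D3:**
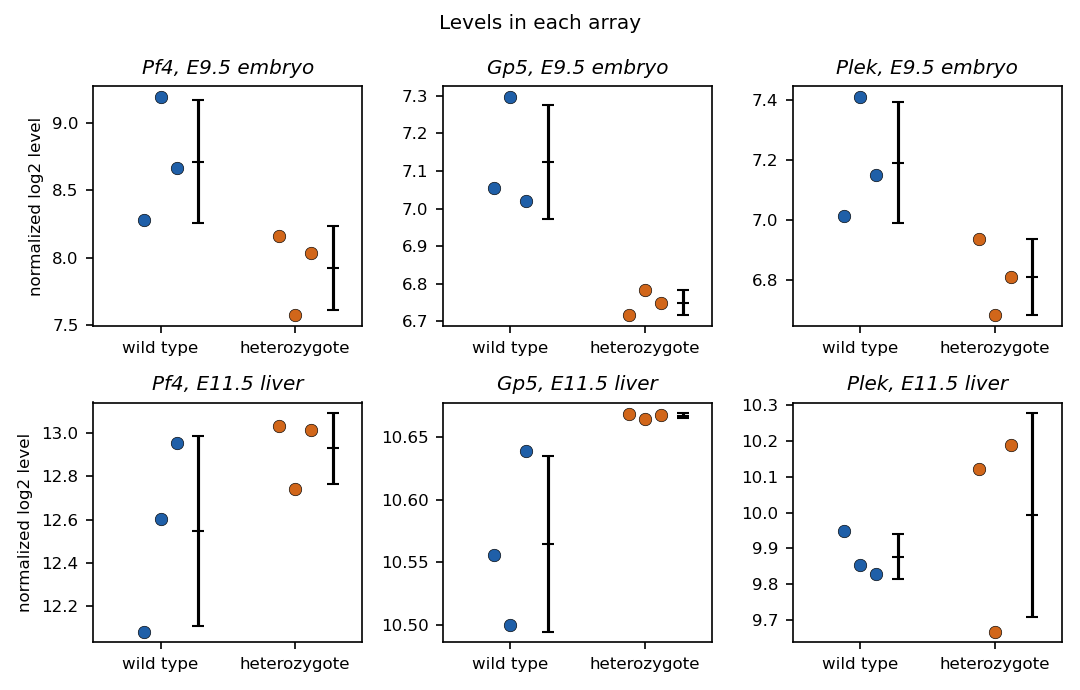
Normalized log2 level (vertical axis) of Pf4, Gp5 and Plek in each array at E9.5 (top) and E11.5 (bottom); points are arrays, and black marks are the group mean with its SD (n = 3). At E9.5 all heterozygote points lie below all wild-type points for the 3 genes, and at E11.5 this order is absent for Pf4 and Plek and is turned round for Gp5.

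At E8.5, Gp5 had levels of 4.13, 3.90 and 3.60 in wild types and of 3.24, 3.33 and 3.35 in heterozygotes. The heterozygotes were again lower without overlap, with a difference of -0.57 (SE 0.176, adjusted p = 1.00), where 3.02% of all target IDs were lower without overlap. Plek differed by -0.73 (SE 0.304, adjusted p = 1.00), and its wild types reached down to 3.33 and its heterozygotes up to 3.39. Itga2b differed by 0.49 (SE 0.358), Gp9 by 0.35 (SE 0.600) and Itgb3 by -0.22 (SE 0.228). Pf4, Ppbp and Gp1bb were below the filter, at -0.16, 0.19 and 0.43.

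The E8.5 genotypes also differed in sex-linked signal. All 3 wild types carried Eif2s3y (9.06 to 9.52) and all 3 heterozygotes Xist (8.62 to 10.37), so sex and genotype cannot be told apart there. Heterozygote replicate 1 had little embryonic globin, with a mean of 8.78 over 3 globin genes against 12.95 to 14.07 in the other 5 arrays. Without it, Gp5 differed by -0.53 and Plek by -0.68. The Plek difference rested more on wild type replicate 1, without which it was -0.43. Over all single arrays left out, it ran from -0.98 to -0.43 for Plek, from -0.70 to -0.44 for Gp5 and from 0.28 to 0.89 for Itga2b. Of the other platelet lists, receptor and adaptor genes had a median of -0.07, granule genes of 0.08, cytoskeleton and enzyme genes of -0.09 and transcription factors of -0.03.

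In E11.5 liver 8 of the 9 members were higher in heterozygotes by small amounts, and none passed the adjusted test. The median difference was 0.11 against -0.00081 for all 15734 target IDs, of which 49.6% were positive. Itga2b had levels of 8.72, 8.84 and 8.87 in wild types and of 8.95, 9.08 and 8.97 in heterozygotes. The heterozygotes were all higher, as the 1 member past an unadjusted p of 0.05 in that direction (1.26% of all target IDs), with a difference of 0.19 (SE 0.0798, adjusted p = 1.00).

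Gp1ba and Gp5 were also higher without overlap, by 0.15 (SE 0.0783) and 0.10 (SE 0.0731), which makes 3 of 9 members, and 4.14% of all target IDs were higher without overlap. Gp5 had levels of 10.56, 10.50 and 10.64 in wild types and of 10.67, 10.66 and 10.67 in heterozygotes, a gap smaller than the spread of the wild types. Pf4 had levels of 12.08, 12.60 and 12.96 in wild types and of 13.03, 12.74 and 13.01 in heterozygotes. The groups overlapped, and the wild types spread over a wider range, for a difference of 0.38 (SE 0.194, adjusted p = 1.00). It was 0.15 without wild type replicate 1 and 0.59 without wild type replicate 3. Ppbp, Gp9, Gp1bb and Plek differed by 0.10 to 0.12, each within the spread of its arrays, and Itgb3 by -0.06.

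Among receptor and adaptor genes 16 of 19 were positive at E11.5, with a median of 0.10. The other platelet lists lay nearer to 0: 13 of 21 granule genes were positive (median 0.02), 11 of 22 cytoskeleton and enzyme genes (median 0.0059) and 8 of 18 transcription factors (median -0.05). The tetraspanin Cd9 differed by 0.21 (SE 0.101) and Fcer1g by 0.30 (SE 0.146), with an adjusted p of 1.00 for each gene. Of 17 macrophage markers 11 were positive with a median of 0.06, and of 16 red cell markers 5 were positive with a median of -0.06. Cardiac markers were high in 1 liver, heterozygote replicate 3, with a mean level of 9.24 against 7.26 to 7.70 in the other 5 arrays. Their part in the platelet values was not tested. Sex-linked signal was uneven as well. Eif2s3y stood at 9.41 and 9.4996 in wild type replicates 1 and 3 and at 9.48 in heterozygote replicate 2, and at 6.81 to 6.99 in the other arrays, which carried Xist (9.71 to 10.06). When each array's Y-linked level entered the fit, the Pf4 difference was 0.32, that of Itga2b 0.20 and that of Plek 0.0377, and all 9 kept their sign.

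In E12.5 liver 6 of the 8 members tested were positive, with a median of 0.11, and the groups overlapped for all 8. Plek differed by 0.18 (SE 0.149), Gp5 by 0.14 (SE 0.117), Itga2b by 0.13 (SE 0.229) and Pf4 by 0.13 (SE 0.123). Their order was not stable: without heterozygote replicate 1, which had the highest Plek level (9.32 against 8.74 to 8.92), Plek stood at 0.0359 and Gp5 at 0.0786. Ppbp and Gp9 differed by 0.09 and 0.05, Itgb3 by -0.01 and Gp1bb by -0.11. Every adjusted p was 1.00, and 3.52% of all target IDs were higher and 3.6% lower without overlap. Of 20 receptor and adaptor genes 16 were positive, with a median of 0.10. So were 15 of 21 cytoskeleton and enzyme genes (median 0.08), 13 of 19 granule genes (median 0.04), 9 of 17 transcription factors (median 0.02) and 14 of 17 endothelial markers (median 0.11). Heterozygote replicate 1 was the 1 array of this stage with Xist, at 7.90 against 1.81 to 2.19.

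**Figure D4:**
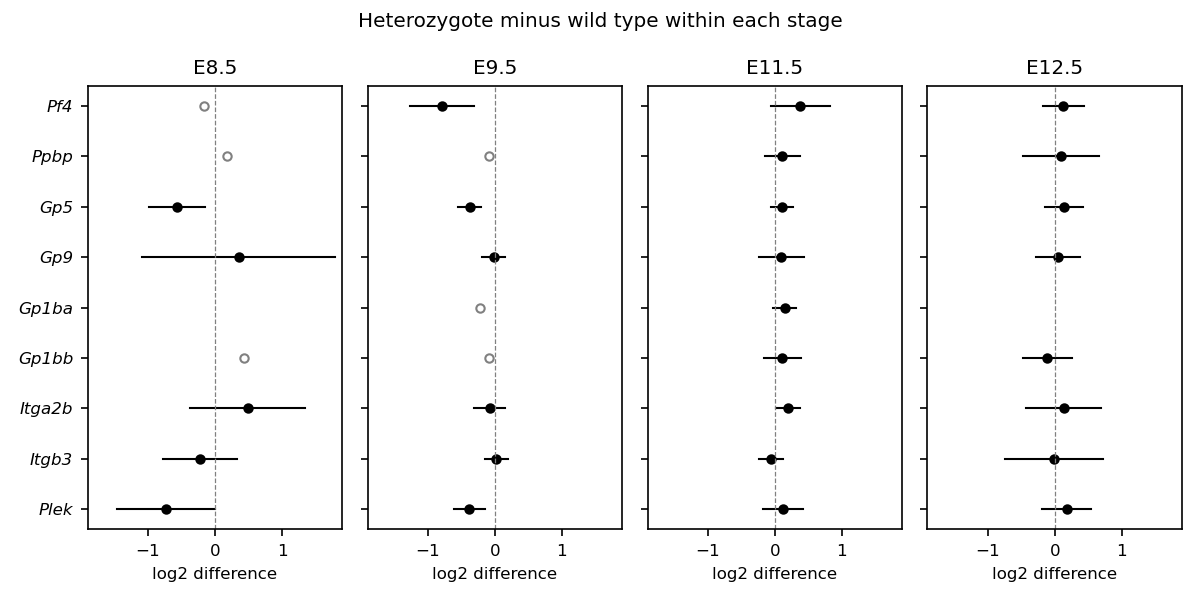
Heterozygote minus wild type log2 difference (horizontal axis) of each member at the 4 stages; black points are limma estimates with 95% intervals, and open grey points are differences of members below the level filter, which were not tested. The intervals of Pf4, Gp5 and Plek at E9.5, Gp5 at E8.5 and Itga2b at E11.5 exclude 0 before adjustment.

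Averaged over the 4 stages in a joint limma fit, no member passed the adjusted test. Gp5 had the smallest p, with an average of -0.17 (SE 0.0726, adjusted p = 0.839), where 2.70% of 16402 target IDs were lower at an unadjusted p under 0.05 and 0 passed after adjustment. Pf4 had an average of -0.11 (95% interval -0.54 to 0.32), Plek of -0.20 (-0.46 to 0.05) and Itga2b of 0.18 (-0.07 to 0.43). Gp1ba, with values at 2 stages, had a mean difference of -0.04 (exact permutation test within stages, two-sided, p = 0.725). Of the transcription factors, Fli1 had an average of 0.39 (SE 0.0797, adjusted p = 0.289). Its heterozygotes were higher without overlap at E8.5 (0.73) and E12.5 (0.69), with differences of 0.05 and 0.08 at E9.5 and E11.5. Over all target IDs 3.96% at E8.5 and 3.52% at E12.5 were higher without overlap. At E8.5 sex and genotype cannot be told apart.

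Whether the heterozygote effect differed between liver and whole embryo was tested directly for 8 members. The contrast was the mean effect over both liver stages minus the mean effect over both embryo stages. Tissue and stage change together in it, and at E8.5 sex and genotype cannot be told apart. The contrast was 0.59 for Gp5 (SE 0.145, adjusted p = 0.442) and 0.70 for Plek (SE 0.243, adjusted p = 0.717). These 2 of 8 were higher at an unadjusted p under 0.05, against 2.31% of 16402 target IDs, and 0 target IDs passed after adjustment. Pf4 stood at 0.73 (95% interval -0.12 to 1.59, adjusted p = 1.00). The other 5 lay between -0.17 for Gp1bb and 0.07 for Itgb3, and of the receptor complex Gp9 stood at -0.09. Differences between members in this contrast were not tested.

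Of 20 receptor and adaptor genes 18 were positive in this contrast, with a median of 0.19 against -0.00479 for all target IDs. The thromboxane receptor Tbxa2r stood at 0.36 (SE 0.164, adjusted p = 0.957) and Treml1 at 0.59 (SE 0.278, adjusted p = 0.962). The other platelet lists were divided, with 12 of 21 cytoskeleton and enzyme genes positive (median 0.09), 10 of 19 granule genes (median 0.03) and 9 of 17 transcription factors (median 0.0089). In the first of these lists cyclooxygenase 1 (Ptgs1), which makes the precursor of thromboxane, stood at 0.52 (SE 0.156, adjusted p = 0.651). Red cell markers were positive in 12 of 15 with a median of 0.34, and hepatic markers negative in 15 of 16 with a median of -0.43. Cardiac markers had a median of 0.48 and neural markers of 0.19. Their part in the platelet contrast was not tested.

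Pf4 also varied between arrays of 1 stage, and the genes nearest to it were sought by Pearson correlation of stage-centred log2 values. The target IDs ranked were those above the median at every stage, and the other members whatever their level. Over 24 arrays and 8931 such target IDs, the closest were the respiratory chain genes Uqcrh (r = 0.69) and Ndufs4 (r = 0.67), the mitochondrial chaperonin Hspe1 (r = 0.65) and, at rank 4, Gp5 (r = 0.65). Ranks 5 to 10 were Cox6c, Mrps18c, Cnih4, S100a10, Eef1b2 and LOC237512. Plek followed at rank 17 (r = 0.57) and Ppbp at rank 39 (r = 0.49), while Itgb3 had an r of 0.02.

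Without the 6 E8.5 arrays the order changed to platelet genes first. Over the other 18 arrays and 9792 target IDs Treml1 (r = 0.80), Tubb1 (r = 0.80) and Gp5 (r = 0.77) led, and Plek stood at rank 6 (r = 0.74). Between and after them came Ndufb5 and Rpl26 at ranks 4 and 5, and Cox6c, Hpgd, Dnajc15 and Atp5o at ranks 7 to 10. In the 12 liver arrays alone the leaders were Pin4 (r = 0.95), Atp5mpl (r = 0.94) and Dynll1 (r = 0.93), and the nearest member was Gp9 at rank 103 (r = 0.78). These values share arrays and normalization, and genotype differences within a stage were left in them.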

How the data were processed

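Total RNA was read as biotinylated cRNA on Illumina mouse bead arrays, per the labels' protocols. The deposited values are log2 levels per target ID, normalized by the authors; background correction, method, software and genome build are not given in the sources used here. The value distribution is common to E8.5 and E12.5 and differs at E9.5 and E11.5, so levels at those stages were set against others only as percentiles. In 4 unnormalized tables, 48 columns match no sample label; only their probe identifiers were read, and the detection filter was replaced by one on level.

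Groups came from the sample titles. The 6 arrays of a stage entered 1 model in R 4.3.3 with limma 3.58.1 (lmFit, eBayes without trend, Benjamini-Hochberg over all target IDs tested, threshold 0.05), on target IDs whose stage mean exceeded the stage median. Fits over 24 arrays, and over the 12 arrays of E8.5 and E12.5, took target IDs with values on every array fitted that exceeded the median of 1 stage or more, with array weights that gave each stage its own spread (0.282, 3.75, 1.95 and 0.484 in stage order). The median SE was 0.223, 0.0647, 0.0909 and 0.157 in the same order, and the number of arrays limits the precision. The smallest exact p for 3 arrays against 3 is 0.1. Of the 31483 target IDs, 13425 matched a RefSeq symbol and 8110 a synonym. A list gene with several target IDs was read by the one of highest mean level, those with values on every array first. A synonym that several genes share, such as ANG1 for Angpt1, was accepted for a list gene. The arrays of a stage correlated at 0.981 to 0.998, and none of the 276 pairs among the 24 arrays held the same values (at most 0.182% equal).

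On simulated data the stage fits recovered 0%, 76%, 46% and 10% of shifts of 0.5 log2, and 34%, 98%, 94% and 60% of shifts of 1, in stage order. There 50 target IDs were shifted at each of 0.5, 1, 2 and 4 log2 together. The noise was independent and normal, with spreads shuffled between target IDs. Many large shifts at once ease the adjusted threshold, so these rates can overstate what the real fits would recover.

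The text names every member, of each other list up to 3 genes per comparison with the smallest p, the 10 target IDs most correlated with Pf4, and genes a result turns on. Fli1 at E9.5, at E11.5 and between stages, and the Pf4 correlations over 18 and 12 arrays, were added after their values were seen. The members and lists were chosen with earlier results of these data known. Alternatives changed the filter, normalization, variance model, replicate block, sex covariate, spread, reference set and single arrays. A gene that the rule picked from the receptor list is counted in that list and is not reported by name here.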

Additional observations from a re-analysis of the deposited data

Results flagged for a closer look

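The difference between Gp5 levels in heterozygotes and wild types ran in opposite directions at different stages, with every heterozygote array below every wild-type array at E8.5 and E9.5 and above every one at E11.5. The effect at E11.5 minus that at E8.5 was 0.67 on the log2 scale, and the effect at E11.5 minus that at E9.5 was 0.48. These stage-to-stage differences were not tested. Over all target IDs 3.02% at E8.5 and 9.27% at E9.5 were lower without overlap, and 4.14% at E11.5 were higher. The E11.5 groups were barely apart, with the lowest heterozygote at 10.66 and the highest wild type at 10.64. At E8.5 sex and genotype cannot be told apart. With 3 arrays a group, no array was tested as an outlier.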

How the results depend on the processing

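Of 982 values of members under an alternative setting, 935 kept their direction and their side of the threshold, 45 changed sign, none of them with an adjusted p under 0.05, and 2 newly passed, Pf4 at E9.5 (adjusted p = 0.0357) and Gp5 at E9.5 (0.00387) in the fit over 24 arrays. Sign changes with the Y-linked covariate were 0.12 for Gp9 and 0.10 for Itga2b at E9.5, -0.10 for Ppbp, -0.0253 for Gp9 and 0.15 for Itgb3 at E12.5, and -0.018 for the Ppbp average. Itgb3 in E12.5 liver minus E8.5 embryo was -0.069 in wild-type arrays alone. Leaving out single arrays changed the sign of small effects, with these ranges: Gp9 -0.25 to 0.88 at E8.5, -0.0699 to 0.0723 at E9.5, -0.0251 to 0.29 at E11.5, -0.0466 to 0.13 at E12.5, -0.0273 to 0.25 on average and -0.36 to 0.21 in liver minus embryo. For Itga2b they were -0.16 to 0.0294 at E9.5, -0.0621 to 0.30 at E12.5 and -0.24 to 0.0611 in liver minus embryo. For Itgb3 they were -0.0398 to 0.10 at E9.5, -0.24 to 0.26 at E12.5, -0.13 to 0.0002 on average, -0.0483 to 0.20 in liver minus embryo and -0.10 to 0.11 in E12.5 minus E8.5. Gp1bb ranged from -0.0144 to 0.25 at E11.5, and Ppbp from -0.0815 to 0.27 at E12.5 and from -0.0332 to 0.14 in liver minus embryo.

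Counts of target IDs passing moved as follows, and the cause was not tested unless fewer were tested or fewer arrays entered. At E8.5 the 3, all sex-linked, became 1 with the filter at the 75th percentile and 0 in the fit over 24 arrays. Without single E8.5 arrays the count was 2 to 3. At E9.5 the 1 became 14 with that filter, 18 with trend and robust variance, 2 with the replicate block, 0 with the Y-linked covariate and 64 over 24 arrays. Without single E9.5 arrays it was 0 to 54, with 54 without heterozygote replicate 3 and 0 without any 1 wild type. At E11.5 the 0 became 1 over 24 arrays and at E12.5 1 with trend and robust variance. The average count of 0 became 1 with the 75th percentile filter and with the covariate, and the liver minus embryo count 1 with the replicate block, the covariate and 1 spread for all stages; without single arrays both were 0 to 1. The E12.5 minus E8.5 count fell from 10737 to 6814 with the stricter filter, which tests fewer. The labels do not say whether equal replicate numbers pair arrays. Same-numbered arrays correlated at -0.393 to 0.177 around their group means. At E8.5 each heterozygote array correlated best with the wild type of its own number. At E12.5 replicates 1 and 2 did so. The replicate block changed no member's call. Each member had 1 target ID, so no other target ID could be tried.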
